A study of Mus musculus with 6 samples.

Results

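The 10 genes described here encode 7 transcription factors of the CREB/ATF group (Creb1, Crem, Atf1, Atf2, Atf4, Creb3 and Creb5) and the 3 CREB-regulated transcription coactivators (Crtc1, Crtc2 and Crtc3). They were chosen by name, as the classic partners of CBP and p300, from the 55471 genes in the table, and all 10 were found by identifier and measured in each library. RNA-seq was performed on the hippocampus of 6 individual male mice, labelled as C57BL/6 (C57BL/6J in the methods of the study) and 3 to 6 months old: 3 p300-ifKO mice, with floxed Ep300 alleles and the Camk2a-creERT2 driver, and 3 control littermates. Tamoxifen was given 5 times to both groups, at 20 mg/ml in oil. By the protocol the controls carry no creERT2, yet their sample descriptions list the driver. Esr1, which shares coding sequence with the creERT2 transgene, had 87.2 to 109 normalized counts in control and 2416 to 4217 in p300-ifKO libraries.

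In this model Cre recombinase is active in excitatory forebrain neurons only, so interneurons and glia of the same tissue keep intact Ep300. The 8 excitatory neuron markers examined, among them Slc17a7, Neurod6 and Prox1, were detected in all 6 libraries. Libraries held 23151568 to 28433823 counts. Ep300 itself was at 1545, 1474 and 2334 normalized counts (counts divided by the DESeq2 size factor) in control mice and at 478, 1350 and 912 in p300-ifKO mice. Each p300-ifKO mouse thus lay below each control. In DESeq2 Ep300 was at −0.97 on the log2 scale (SE 0.33, unadjusted p 0.00369) and did not pass (adjusted p 0.991). Of its group, p300-ifKO replicate 2 was the closest to the controls. The paper describes a truncated p300 protein in these mice, and a count per gene does not separate truncated from full transcripts. The libraries also differed in a trend with exonic length. Across 17071 genes, the Spearman rho between length and the ratio to the mean of the 6 libraries was 0.18, 0.16 and 0.41 in controls and −0.50, 0.41 and −0.28 in p300-ifKOs. The trend thus partly followed the groups, being positive in all 3 controls and negative in 2 of 3 p300-ifKOs. In bulk tissue, fewer cells of a type and less RNA per cell cannot be told apart.

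CREB (Creb1), CREM and ATF1 are closely related leucine zipper proteins that bind the cAMP response element (CRE). When kinases such as PKA or CaMKIV phosphorylate their kinase-inducible domain, it binds the KIX domain of CBP and p300, which acetylate histones at target genes. CRTC proteins give a separate route: dephosphorylated by calcineurin upon calcium entry, they move from cytoplasm to nucleus and bind the leucine zipper of CREB. In the hippocampus this pathway is known for its part in activity-dependent transcription, synaptic plasticity and long-term memory. Most of this regulation acts on the proteins, through phosphorylation, location or, for ATF4, translation, and RNA-seq reads only the transcripts.

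Genes of the family can themselves carry CREs near their start, and the promoters that do are shown because a factor of the family could bind there. Promoter windows from RefSeq (GRCm38.p6) were found for 8 of the 10 members, in 9 windows, and the 250 bases before each start were searched on both strands for the full CRE, TGACGTCA, and for its core TGACG, which the full CRE also contains. A full CRE was present in 1 member, Creb5, in the window of 1 of its start sites, and the core in 3 members, Creb5, Atf4 and Atf1. Of all 32851 promoter windows, 1.55% held a full CRE and 17.8% the core. The windows of Creb1, Atf2, Creb3, Crtc1 and Crtc3 held neither. Capitals mark the full CRE in Creb5 (chr6:53287053-53287269), where it starts 45 bases before the transcription start, and the core in Atf4 (chr15:80254934-80255183, read on the opposite strand as CGTCA, 12 bases before the start) and in Atf1 (chr15:100227609-100227818, 90 bases before the start). All 3 genes lie on the plus strand, and each sequence is cut where the GENCODE gene begins.
Creb5: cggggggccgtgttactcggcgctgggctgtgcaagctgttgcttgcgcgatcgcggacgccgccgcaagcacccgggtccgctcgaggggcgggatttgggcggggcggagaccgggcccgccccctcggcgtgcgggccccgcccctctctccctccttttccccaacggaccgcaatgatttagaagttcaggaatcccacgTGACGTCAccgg
Atf4: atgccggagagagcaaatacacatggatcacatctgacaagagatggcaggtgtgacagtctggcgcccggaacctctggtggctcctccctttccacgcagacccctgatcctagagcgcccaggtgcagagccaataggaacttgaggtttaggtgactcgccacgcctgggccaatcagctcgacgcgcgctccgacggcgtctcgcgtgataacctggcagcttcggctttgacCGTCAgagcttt
Atf1: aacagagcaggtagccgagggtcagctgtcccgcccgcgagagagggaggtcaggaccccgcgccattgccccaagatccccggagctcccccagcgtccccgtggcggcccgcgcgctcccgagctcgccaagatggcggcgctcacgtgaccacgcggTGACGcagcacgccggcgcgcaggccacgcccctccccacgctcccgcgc
In the DESeq2 comparison of p300-ifKO with control, Creb5 had a log2 fold change of 0.022, Atf4 of 0.15 and Atf1 of −0.022, and none of these 3 passed the threshold.

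The levels of the members were first set side by side per length, as TPM, computed as counts per base of exonic length scaled to the same total in each library. Atf4, the effector of the integrated stress response, was the highest of the 10, with a mean over the 6 libraries of 219 TPM (205 to 255). Crtc1, the coactivator known from neurons, followed at 99.2 TPM (85.3 to 106), then Creb3, a factor anchored in the endoplasmic reticulum membrane, at 73.4 TPM (65.4 to 92.0), and Atf2, a factor that responds to stress kinases, at 52.3 TPM (37.2 to 59.6). Crtc2, best known for control of liver gluconeogenesis, had 37.0 TPM (34.8 to 38.0). The CREB subfamily was lower, with Creb1 at 13.4 TPM (9.29 to 16.7), Atf1 at 8.90 TPM (7.14 to 9.95) and Crem at 7.88 TPM (7.24 to 8.83). Crtc3 lay between them at 10.8 TPM (8.84 to 12.7). Creb5, a relative of Atf2, was the lowest at 0.63 TPM (0.538 to 0.694), and its exonic length of 25021 bases, summed over all its annotated exons, lowers its value on this scale. Neighbours in this order whose ranges over the 6 libraries overlapped were Crtc1 and Creb3, Atf2 and Crtc2, Creb1 and Crtc3, Crtc3 and Atf1, and Atf1 and Crem. Ranges did not overlap between Atf4 and Crtc1, Creb3 and Atf2, Crtc2 and Creb1, and Crem and Creb5.

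**Figure D1:**
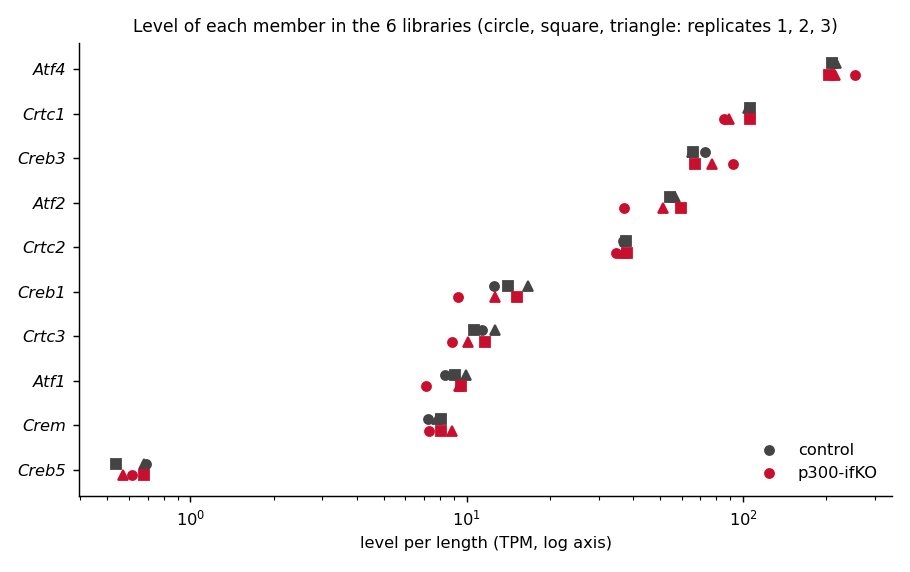
Level per length (TPM, log axis) of the 10 genes, ordered by their mean, with 1 point per library in grey for control and red for p300-ifKO. Atf4 lies at 205 TPM or more in each library and Creb5 at 0.694 TPM or less, and points of both groups intermingle in most rows.

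The make-up of each subfamily was then compared between groups. Of the summed TPM of Creb1, Crem and Atf1, Creb1 made up 44.7%, 45.0% and 48.5% in controls and 39.2%, 46.3% and 41.0% in p300-ifKOs. The share of Crem was 25.7%, 25.8% and 22.6% in controls and 30.7%, 24.7% and 28.6% in p300-ifKOs. Replicate 2 of p300-ifKO lay within the control range for both genes, while the other two p300-ifKO libraries lay below it for Creb1 and above it for Crem. Atf1 held 28.9% to 30.4% in all libraries. Among the coactivators, Crtc1 made up 65.4% to 68.7% of the summed TPM, Crtc2 24.1% to 27.2% and Crtc3 6.84% to 8.23%. The groups overlapped for each of these 6 shares. Creb1 is 13742 bases long against 5895 for Crem, and the shares were not adjusted for the length trend.

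Whether the loss of p300 changed transcripts of its partners was asked for each member. At a threshold of 0.05 on the adjusted p, 0 of the 10 members passed in DESeq2, and 0 had an unadjusted p under 0.05. Across the transcriptome, 2 of 32773 genes passed (0.00610%), Esr1 and Arsi, and 1.32% had an unadjusted p under 0.05. The paper attributes the rise of both genes to the Camk2a-creERT2 driver, whose construct also carries Arsi. The edgeR quasi-likelihood test also gave 0 members at either threshold, beside 0.0117% and 2.30% of 17131 genes. All 10 members had a mean of at least 50 normalized counts. Of the 13613 such genes, 316 had an unadjusted p under 0.05 in DESeq2 and 262 in edgeR. Log2 fold changes of the members ran from −0.18 for Creb1 to 0.28 for Creb3, 5 above and 5 below 0, and their median was 5.4e-05 beside −0.0043 over the 13613 genes with a mean of at least 50 normalized counts. The 6 libraries of each member overlapped between groups, so that 0 of 10 members had all p300-ifKO values on the same side of all control values, against 6.91% of those 13613 genes. The 95% interval of the log2 fold change lay within 0.5 of 0 for 8 of 10 members, all but Creb1 and Creb3, and within 1 of 0 for all 10. Over the same 13613 genes these shares were 48.4% and 94.7%.

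**Figure D2:**
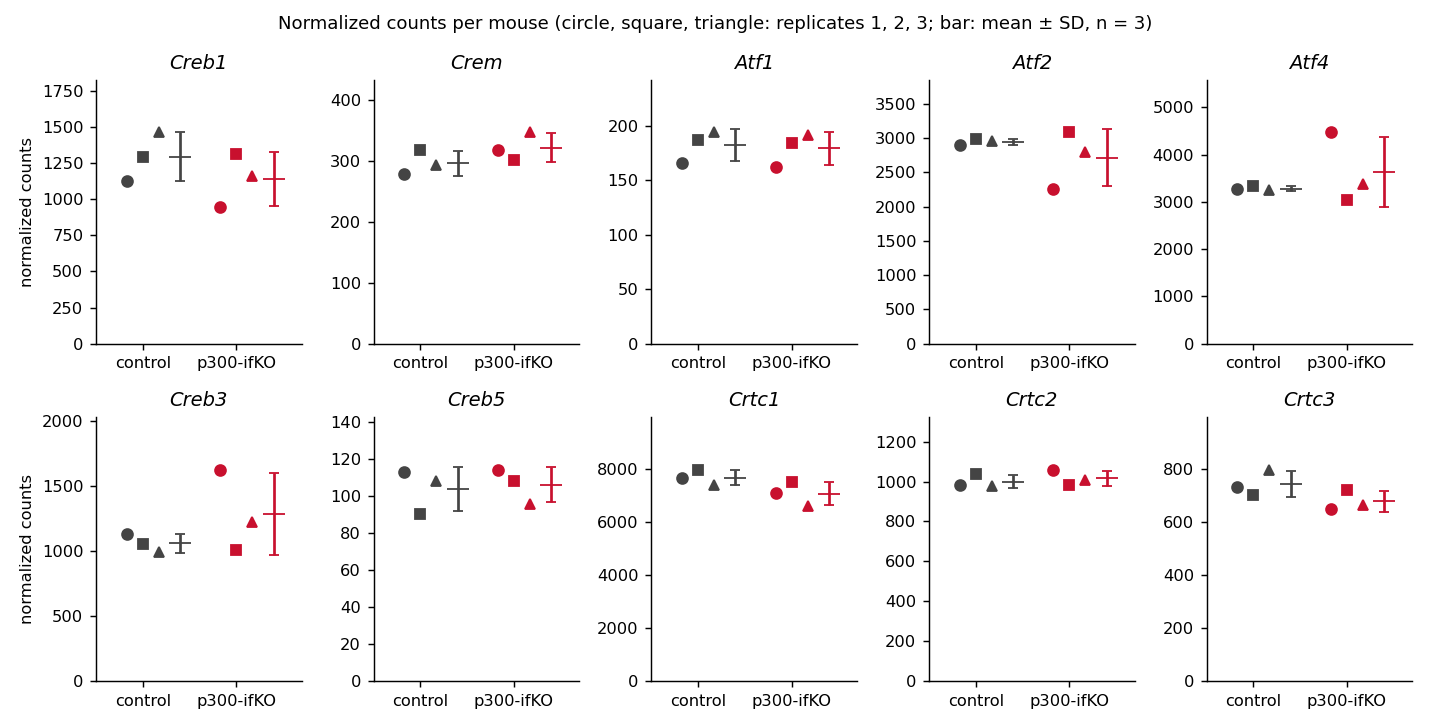
Normalized counts of each gene in the 3 control (grey) and 3 p300-ifKO (red) mice, with mean ± SD beside them (n = 3) and each axis starting at 0. The groups overlap for all 10 genes, and p300-ifKO replicate 1 (red circle) stands apart for Atf2, Atf4 and Creb3.

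Creb1 (ENSMUSG00000025958, chromosome 1, 64532645 to 64604548 on GRCm38), the founding factor of the family, had 1127, 1296 and 1464 normalized counts in controls and 948, 1317 and 1163 in p300-ifKOs. In p300-ifKO, 2 mice lay below the control mean and 1 above it. The log2 fold change was −0.18 (SE 0.18, 95% interval −0.53 to 0.16, adjusted p 0.991 in DESeq2). It was −0.29 without p300-ifKO replicate 2 (adjusted p 0.213) and −0.065 without p300-ifKO replicate 1. The length and GC offsets, which remove from each library a smooth trend with exonic length and GC content, turned the sign, to 0.083.

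Crem (ENSMUSG00000063889, chromosome 18, 3266048 to 3337748), whose internal promoter also gives rise to the inducible repressor ICER, had 278, 318 and 293 normalized counts in controls and 319, 301 and 347 in p300-ifKOs. All 3 p300-ifKO values lay above the control mean, but the lowest was below control replicate 2. The log2 fold change was 0.12 (SE 0.16, 95% interval −0.18 to 0.43, adjusted p 0.991 in DESeq2), and 0.26 with length and GC offsets (adjusted p 0.949). A count per gene does not separate ICER from the activators, and 5.72% of the 50-base stretches of Crem transcripts also lie in another gene. Atf1 (ENSMUSG00000023027, chromosome 15, 100227819 to 100261244), the third member of the subfamily, had 166, 187 and 194 normalized counts in controls and 162, 184 and 192 in p300-ifKOs. These sets of values nearly coincided, with a log2 fold change of −0.022 (SE 0.18, 95% interval −0.38 to 0.34). Of its 50-base stretches 12.07% lie in other genes, most of them in the pseudogene Atf1-ps.

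Atf2 (ENSMUSG00000027104, chromosome 2, 73816509 to 73892639) had 2904, 2989 and 2957 normalized counts in controls and 2264, 3083 and 2801 in p300-ifKOs. The control mice were close to each other (SD 42.8), whereas p300-ifKO replicate 1 was the lowest and replicate 2 the highest of all 6. The log2 fold change of −0.12 (SE 0.15) became −0.0053 without p300-ifKO replicate 1 and −0.22 without replicate 2, and was 0.15 with length and GC offsets. Creb5 (ENSMUSG00000053007, chromosome 6, 53287270 to 53700376) had 113, 90.4 and 108 normalized counts in controls and 114, 108 and 95.5 in p300-ifKOs. With 86 to 122 counts per library it was the least covered member, and its log2 fold change was 0.022 (SE 0.22, 95% interval −0.41 to 0.46). With length and GC offsets it was 0.30 (SE 0.26, adjusted p 0.949 in DESeq2).

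Atf4 (ENSMUSG00000042406, chromosome 15, 80255184 to 80257541) had 3263, 3330 and 3245 normalized counts in controls and 4466, 3045 and 3385 in p300-ifKOs. Control values again lay close together (SD 44.9), and 1 p300-ifKO mouse, replicate 1, was above the other 5 libraries. The log2 fold change of 0.15 (SE 0.17, 95% interval −0.18 to 0.48, adjusted p 0.991 in DESeq2) was −0.030 without that library and 0.26 without p300-ifKO replicate 2. Creb3 (ENSMUSG00000028466, chromosome 4, 43562332 to 43567060), which is released from the membrane by proteolysis to enter the nucleus, had 1132, 1048 and 987 normalized counts in controls and 1621, 1003 and 1222 in p300-ifKOs. In p300-ifKO, 2 libraries exceeded the highest control and the third, replicate 2, lay within the control range. Its log2 fold change, the largest among the members, was 0.28 (SE 0.20, 95% interval −0.10 to 0.66), and did not pass (unadjusted p 0.154, adjusted p 0.991 in DESeq2). Without p300-ifKO replicate 2 it was 0.43 (unadjusted p 0.00848, adjusted p 0.0693 in DESeq2), in a fit in which 2.89% of all genes passed the adjusted threshold and 12.8% the unadjusted threshold. Of the 13613 genes with a mean of at least 50 normalized counts, 482 passed the adjusted threshold there as higher and 444 as lower. Without p300-ifKO replicate 1 the log2 fold change of Creb3 was 0.074, and with 1 surrogate variable 0.012. For Creb3, 15.99% of the 50-base stretches lie in neighbouring genes, chiefly Tln1, and since a strand setting is not stated these reads cannot be assigned with certainty.

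Crtc1 (ENSMUSG00000003575, chromosome 8, 70382355 to 70439579), which carries calcium and cAMP signals from synapse to nucleus, had 7659, 7969 and 7398 normalized counts in controls and 7085, 7495 and 6615 in p300-ifKOs. Each p300-ifKO mouse lay below the control mean, and replicate 2 exceeded the lowest control. The log2 fold change was −0.12 (SE 0.11, 95% interval −0.33 to 0.093, adjusted p 0.991 in DESeq2), and −0.025 with length and GC offsets. Crtc3 (ENSMUSG00000030527, chromosome 7, 80586627 to 80688877) had 731, 699 and 795 normalized counts in controls and 647, 720 and 662 in p300-ifKOs, again with each p300-ifKO value below the control mean and with overlapping groups. Its log2 fold change was −0.13 (SE 0.13, 95% interval −0.39 to 0.12), and −0.019 with length and GC offsets. Crtc2 (ENSMUSG00000027936, chromosome 3, 90254163 to 90264125) had 984, 1036 and 978 normalized counts in controls and 1059, 982 and 1007 in p300-ifKOs. It varied least of all members, with an SD of 0.047 over the 6 libraries on the log2 scale, and only 2.0% of genes with a mean of at least 50 normalized counts varied less. Its log2 fold change was 0.023 (SE 0.11, 95% interval −0.20 to 0.25).

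**Figure D3:**
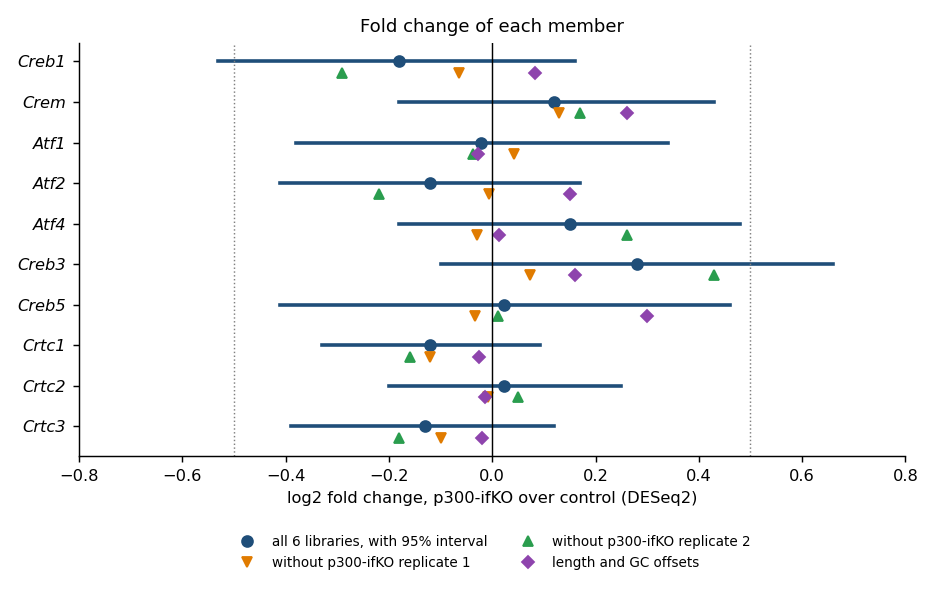
Log2 fold change of each gene between p300-ifKO and control mice (blue circle, line: 95% interval), with the values without p300-ifKO replicate 1 or 2 and with length and GC offsets below it. All 10 intervals include 0, and the dotted lines mark 0.5 in either direction.

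The library that most often stood at the end of the range was p300-ifKO replicate 1. It held the highest value of the 6 for Atf4, Creb3, Creb5 and Crtc2 and the lowest for Creb1, Atf1, Atf2 and Crtc3, thus an extreme value for 8 of 10 members. The same library was the extreme for 79.7% of the 13613 genes, so that the members did as most genes did. Variation over the 6 libraries was largest for Creb3 (SD 0.27 on the log2 scale) and Creb1 (SD 0.22).

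Members were then ordered by exonic length, which the choice of genes did not use and which spanned 2358 bases for Atf4 to 25021 for Creb5. The 2 members under 3000 bases, Atf4 and Creb3, had log2 fold changes of 0.15 and 0.28, and the median of the 3553 genes of that length was 0.19. Of the 5 members of 8000 bases or more, Creb1, Atf2, Crtc1 and Crtc3 lay between −0.18 and −0.12, where the median of 2625 genes was −0.16, and Creb5 lay at 0.022. Between these lengths, Atf1, Crtc2 and Crem lay at −0.022, 0.023 and 0.12, beside a median of −0.016 over 7435 genes. Across the members, which share their libraries and are not replicates, the Spearman rho of fold change with length was −0.72 (n = 10), and across 13613 genes it was −0.58. With length and GC offsets these were 0.19 and −0.15. Crem and Creb5 lay farthest above the median of their length class, and neither passed the threshold with or without the offsets.

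**Figure D4:**
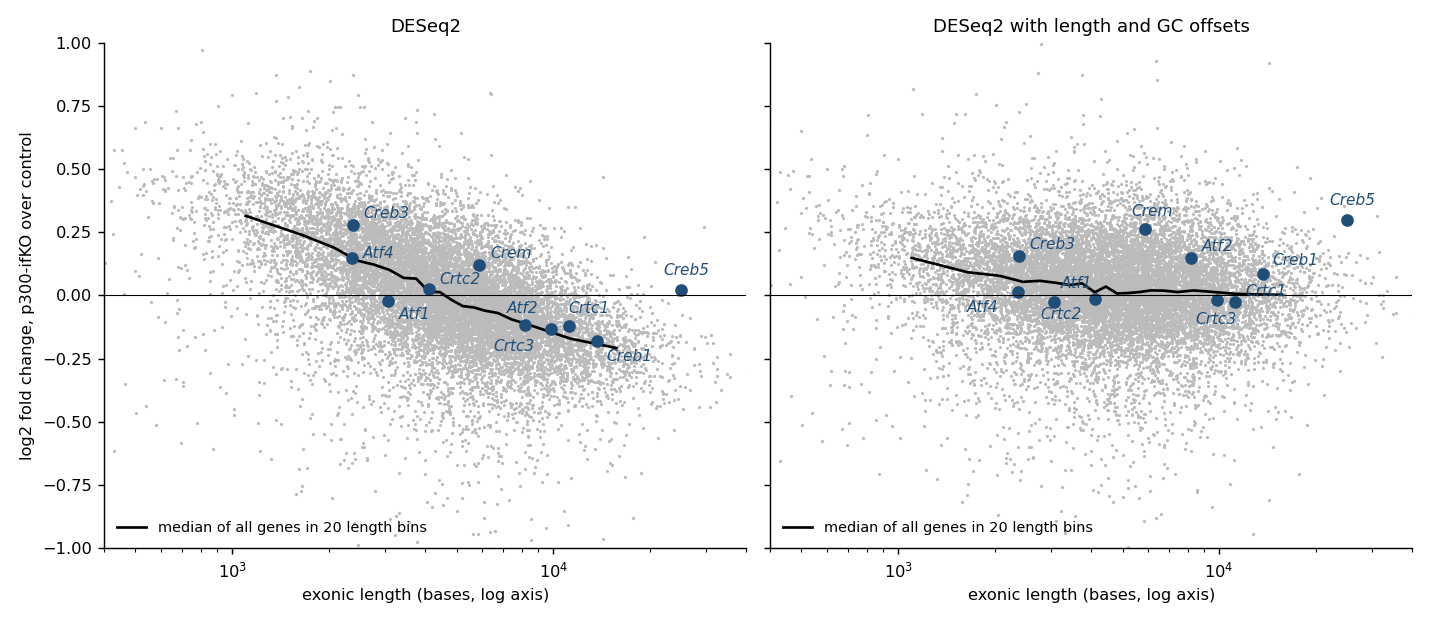
Log2 fold change between p300-ifKO and control mice against exonic length (bases, log axis) for genes with a mean of at least 50 normalized counts (grey) and the 10 members (blue), without (left) and with (right) length and GC offsets. The line joins medians of all genes in length bins: it slopes downward on the left, where most members follow it, and is flatter on the right. The vertical axis is limited to values within 1 of 0.

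The genes whose pattern over the 6 libraries was most like that of Creb1, by the root mean square difference of centred log2 normalized counts, were Slc24a2 (0.027), Ncoa6 (0.035) and Ccnt2 (0.036). Slc24a2, a sodium, calcium and potassium exchanger of neurons, had 15185, 16925 and 19697 normalized counts in controls and 12583, 18016 and 15085 in p300-ifKOs, the same order of libraries within each group as Creb1. These genes are 12217, 9744 and 12345 bases long, and likeness over 6 libraries that share a length trend is a description only. Within the set, 4 pairs were each other's nearest: Crem and Crtc2 (0.086), Crtc1 and Crtc3 (0.093), Atf4 and Creb3 (0.096), and Creb1 and Atf2 (0.11).

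Other factors of the CREB/ATF group were read as a list of 16 genes. None passed in DESeq2 or edgeR, beside 0.00610% and 0.0117% of all genes. In each test 1 of 16 had an unadjusted p under 0.05, beside 1.32% of all genes in DESeq2 and 2.30% in edgeR. In DESeq2 this was Creb3l3, a factor best known from liver, which was named after its values were seen. Creb3l3 had 17.9, 32.6 and 26.5 normalized counts in controls and 44.0, 39.8 and 50.1 in p300-ifKOs, a log2 fold change of 0.80 (unadjusted p 0.0305, adjusted p 0.991 in DESeq2), with each p300-ifKO mouse above each control. Its mean of 35.2 was below the limit of 50 used for the share of genes without overlap (6.91% of 13613). Of the 10 genes of the list above that limit, 0 had groups without overlap. Among the 10 genes of the list with a mean of at least 50 normalized counts, 3 lay above and 7 below 0, from Creb3l2 (−0.20) and Atf7 (−0.19), a close relative of Atf2, to Atf5 (0.043) and Jdp2 (0.28). Without p300-ifKO replicate 2 Creb3l2 was at −0.38 and Jdp2 at 0.43 (adjusted p 0.0754 in DESeq2), and without p300-ifKO replicate 1 at −0.058 and 0.071. The median of the list was −0.089, 0.011 with length and GC offsets, where that of all 13613 genes was 0.037, and −0.018 with 1 surrogate variable.

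The input to CREB was read from 29 genes for adenylyl cyclases, PKA subunits, phosphodiesterases, calcium/calmodulin kinases and ERK-pathway kinases. In DESeq2 and edgeR 0 of them passed, beside 2 of the 13613 genes with a mean of at least 50 normalized counts in each test. In each test 1 of the 29 had an unadjusted p under 0.05, beside 1.32% of all genes in DESeq2 and 2.30% in edgeR. Of the 13613 genes, 316 had one in DESeq2 and 262 in edgeR. Of the 29, 6 were higher and 23 lower, and the median log2 fold change was −0.15 beside −0.0043 over 13613 genes. Their median exonic length was 7110 bases against 4610 for those genes. The median log2 fold change of the 29 was −0.070 with length and GC offsets and −0.014 with 1 surrogate variable. Over the 13613 genes these medians were 0.037 and 0.00043. The ends of the list were Pde4d (−0.55), a cAMP phosphodiesterase, and Adcy9 (−0.54), an adenylyl cyclase, and at the other end Camk1 (0.23) and Rps6ka1 (0.24), which encodes the CREB kinase RSK1. Adcy9 had 1553, 1610 and 2143 normalized counts in controls and 367, 2310 and 968 in p300-ifKOs, so that p300-ifKO replicate 2 was above every control and the other two far below. Its log2 fold change was −1.40 without p300-ifKO replicate 2 (DESeq2, adjusted p 0.0647), −0.11 without p300-ifKO replicate 1 and −0.0063 with 1 surrogate variable. Pde4d turned to 0.026 with 1 surrogate variable. Groups did not overlap for 2 of the 29, beside 6.91% of the 13613 genes in either direction. Both were lower in p300-ifKO mice (3.15% of the 13613 genes) and are named after their values were seen. Adcy5, a cyclase, had 3577, 3734 and 3529 normalized counts in controls and 2847, 3331 and 3003 in p300-ifKOs (log2 fold change −0.24, unadjusted p 0.0392, adjusted p 0.991 in DESeq2). Camk4, which encodes the nuclear CREB kinase CaMKIV, had 354, 367 and 469 in controls and 280, 344 and 307 in p300-ifKOs (log2 fold change −0.35, unadjusted p 0.0529, adjusted p 0.991 in DESeq2). Without p300-ifKO replicate 2, 3 of the 29 passed in DESeq2, beside 2.89% of all genes in either direction. All 29 had a mean of at least 50 normalized counts. Of the 13613 such genes, 482 passed as higher and 444 as lower in that fit. The 3 input genes were all lower (1.39% of all genes): Pde4d (−1.18, adjusted p 0.0167 in DESeq2) and, named after their values were seen, Pde10a (−0.63, adjusted p 0.0277) and Camkk2 (−0.40, adjusted p 0.0344).

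For the CRTC proteins, 16 genes were examined that encode their kinases (SIK, AMPK and MARK2), calcineurin and 14-3-3 proteins, which hold phosphorylated CRTCs in the cytoplasm. In DESeq2 and in edgeR 0 passed, and 0 had an unadjusted p under 0.05 in either test. All 16 had a mean of at least 50 normalized counts. Of the 13613 such genes, 2 passed in each test. An unadjusted p under 0.05 was found for 316 of the 13613 in DESeq2 and 262 in edgeR. Fold changes of the 16 genes were above 0 for 6 and below it for 10. Their median was −0.059, turning to 0.017 with length and GC offsets and lying at −0.018 with 1 surrogate variable. Over the 13613 genes these medians were −0.0043, 0.037 and 0.00043. Sik2 had 238, 223 and 448 normalized counts in controls and 52.6, 359 and 145 in p300-ifKOs, a log2 fold change of −0.71 with a wide SE of 0.79. Single libraries decided this value, which was −1.61 without p300-ifKO replicate 2 (DESeq2, adjusted p 0.0906), −0.27 without p300-ifKO replicate 1, −0.31 without control replicate 3 and −0.0027 with 1 surrogate variable. Sik1, a kinase gene that is itself a CREB target, lay at −0.34 (SE 0.36), at −0.62 without p300-ifKO replicate 2 and at −0.059 without p300-ifKO replicate 1. At the upper end were Ywhaq (0.18) and Ywhaz (0.27), both for 14-3-3 proteins, which lay at −0.089 and 0.061 without p300-ifKO replicate 1 and at 0.37 and 0.44 without p300-ifKO replicate 2. Ywhab, also for a 14-3-3 protein and named after its values were seen, was the only gene of the list whose groups did not overlap, 1 of 16 beside 6.91% of the 13613 genes, with a log2 fold change of −0.13 (SE 0.10).

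Known targets of CREB were read from 20 genes, many of them activity-regulated, of which 18 had a mean of at least 50 normalized counts. Again 0 passed in DESeq2 or edgeR, beside 0.00610% and 0.0117% of all genes. In either test 0 had an unadjusted p under 0.05, beside 1.32% and 2.30% of all genes. Of the 18, 5 were higher and 13 lower. Their median was −0.090, −0.14 with length and GC offsets and −0.043 with 1 surrogate variable. Over the 13613 genes these medians were −0.0043, 0.037 and 0.00043, with 6719 genes higher and 6894 lower. The median exonic length was 3241 bases for the 18 targets and 4610 for the 13613 genes. Pcsk1, which encodes a prohormone convertase, had 841, 541 and 753 normalized counts in controls and 289, 667 and 559 in p300-ifKOs (log2 fold change −0.49, SE 0.30). It was −0.74 without p300-ifKO replicate 2 (DESeq2, adjusted p 0.0545) and −0.22 without p300-ifKO replicate 1. Ppargc1a, for the metabolic coactivator PGC-1α, lay at −0.31 (SE 0.22), and at −0.52 without p300-ifKO replicate 2, where it alone of the 20 passed (adjusted p 0.0437 in DESeq2), beside 2.89% of all genes. Of the 13613 genes with a mean of at least 50 normalized counts, 482 passed in that fit as higher and 444 as lower. The upper end was held by Junb (0.21) and Gadd45b (0.22), a DNA demethylation and stress gene. The mice were not stimulated, so these are resting levels.

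The ATF4 pathway was read from 20 genes, for the eIF2α kinases and phosphatase subunits and for targets of ATF4 in amino acid metabolism and stress. In DESeq2 and in edgeR 0 passed, beside 0.00610% and 0.0117% of all genes. In either test 0 had an unadjusted p under 0.05, beside 1.32% and 2.30%. Of the 18 with a mean of at least 50 normalized counts, 13 were higher and 5 lower. Of the 13613 genes, 6719 were higher and 6894 lower. The median exonic length was 3618 bases for the 18 and 4610 for the 13613 genes. The median log2 fold change of the 18 was 0.070, 0.075 with length and GC offsets and −0.0063 with 1 surrogate variable. Over the 13613 genes these medians were −0.0043, 0.037 and 0.00043. Slc7a11, for the cystine transporter, lay at −0.16 and Eif2ak4, for the amino acid sensor GCN2, at −0.14. Ppp1r15a, for the stress-induced phosphatase subunit GADD34, lay at 0.27 (SE 0.18), and Cebpb at 0.47 (SE 0.29), with 78.5, 123 and 73.5 normalized counts in controls and 155, 99.0 and 127 in p300-ifKOs. Without p300-ifKO replicate 1 they lay at 0.13 and 0.30. Groups did not overlap for 1 gene, Slc7a5, named after its values were seen, which lay at −0.087, again beside 6.91% of the 13613 genes.

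Marker genes of other cells were summed per library to see whether tissue composition moved with the groups. The 6 microglial markers summed to 476 to 515 TPM in control and 531 to 574 in p300-ifKO mice, and the 6 astrocyte markers to 1220 to 1280 and 1150 to 1200, so these ranges did not overlap. Singly, 4 microglial markers were higher and 2 lower, and 2 astrocyte markers higher and 4 lower. Groups did not overlap for 1 marker of each list, beside 6.91% of the 13613 genes. The sums were not adjusted for the length trend. The median exonic length was 2430 bases for the microglial and 5374 for the astrocyte markers, against 4610 for those genes. The median log2 fold change was 0.097 for the microglial and −0.023 for the astrocyte markers. With length and GC offsets these were 0.071 and −0.033, where that of the 13613 genes was 0.037. The 5 endothelial markers summed to 115 to 119 TPM in control and 119 to 128 in p300-ifKO mice. Taken singly, however, 1 of these 5 was higher and 4 were lower, with a median log2 fold change of −0.19. Ranges overlapped for the markers of excitatory neurons (3710 to 4080 and 3230 to 4370 TPM), interneurons (1810 to 2230 and 1730 to 2400), oligodendrocytes (2600 to 3620 and 2900 to 3140), choroid plexus (27.2 to 395 and 105 to 592) and blood (411 to 827 and 292 to 626). Their part in the values of the members was not tested. Crebbp, the paralogue that binds the same factors, had 2089, 1984 and 2180 normalized counts in controls and 1957, 2055 and 2008 in p300-ifKOs (log2 fold change −0.055, SE 0.11).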

How the data were processed

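The deposited table gives unnormalized counts for each gene, which the authors derived from hippocampal RNA sequenced as single-end 50 bp reads, 1 library per mouse. They trimmed reads with Trim Galore (version 0.6.4, per the labels), aligned them with STAR (version 2.6.1) to GRCm38, kept reads with a mapping quality above 10, so that genes with close copies lose reads, and counted exonic reads with Rsubread. The strand setting is not given in the sources used here. Of the 55471 genes, 99.57% matched GENCODE M21 on the same build by identifier, which gave symbols, coordinates and GC content. Unused per-sample columns numbered 0.

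Groups and replicate numbers come from the sample titles. p300-ifKO and control (3 mice each) were compared over all genes with DESeq2 (version 1.42.0, run in R 4.3.3), as the study did: a two-sided Wald test with median-of-ratios size factors, no covariate and Benjamini-Hochberg adjustment over 32773 genes, with a threshold of 0.05. TPM were computed from counts and the exonic length in the table, and intervals are 95% intervals from the standard error. Litters and batches of single samples are not given, although the names of the libraries carry matching numbers in both groups. The p-values cover the spread between these mice.

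Alternatives were the edgeR quasi-likelihood test (version 4.0.16), limma-voom (version 3.58.1), TMM factors, keeping genes with 10 counts or more in 3 libraries, edgeR with no filter, filtering off in DESeq2, a threshold of 0.1, a replicate block, 1 surrogate variable (sva, version 3.50.0), smooth length and GC offsets per library (mgcv, version 1.9.3) and leaving out each library. The surrogate variable was 0.08, 0.05 and 0.5 in controls and −0.79, 0.31 and −0.14 in p300-ifKOs. It thus partly followed the groups, and values fitted with it cannot tell a group difference from this variable. The DESeq2, edgeR, limma-voom, surrogate variable and offset fits were run on simulated counts. Those counts held no length trend, so the simulation could not test the fits under such a trend. The members, gene lists and alternatives were chosen with earlier results of these data known. Named genes were the 10 members, Ep300, Crebbp, Esr1 and Arsi, the 2 lowest and 2 highest fold changes of each pathway list among genes with a mean of at least 50 normalized counts, any gene of a list that passed, and the 3 genes nearest to Creb1 (mean of at least 100). A few genes outside this rule are named, each marked as chosen after its values were seen.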

Additional observations from a re-analysis of the deposited data

How the results depend on the processing

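With 3 mice per group, the 95% intervals of the members left room for changes between 0.25 (Crtc2) and 0.66 (Creb3) on the log2 scale. The count of members that passed was 0 under every alternative run. The count over all genes was 4 with the replicate block and ran from 2 to 926 when single libraries were left out, the 926 without p300-ifKO replicate 2; the pathway genes ran from 0 to 4 in the same fits, the 4 (Pde4d, Pde10a, Camkk2 and Ppargc1a) again without that library. The adjusted p of Creb3 ran from 0.0693 to 1 over its alternatives in DESeq2, edgeR and limma. The sources used here do not say that a replicate number marks a shared litter or batch, and deviations of same-numbered libraries correlated by 0.27, −0.28 and 0.14 across genes, so the pairing was not used; the replicate block called 0 members. Ep300, at −0.97 with all libraries (adjusted p 0.991, DESeq2), was −0.66 when p300-ifKO replicate 1 was left out (adjusted p 1) and −1.36 when p300-ifKO replicate 2 was (adjusted p 0.000375), and −0.48 with 1 surrogate variable (adjusted p 0.00127).

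Signs turned as follows on the log2 scale, each without passing the threshold; the cause was not tested. With 1 surrogate variable, Creb1 was 0.0029, Atf1 0.057, Atf2 0.011, Atf4 −0.054, Crtc2 −0.020, Creb3l2 0.025, Atf5 −0.13, Pde4d 0.026, Sik1 0.11, Ywhaq −0.17, Ywhaz −0.038, Slc7a11 0.066 and Eif2ak4 0.0027. With length and GC offsets, Creb1 was 0.083, Atf2 0.15, Crtc2 −0.013, Crebbp 0.11, Atf7 0.0035, Atf5 −0.15 and Slc7a11 0.12. Leaving out single libraries, Atf1 ranged from −0.085 to 0.042, Atf4 from −0.030 to 0.26, Creb5 from −0.066 to 0.092, Crtc2 from −0.0085 to 0.053, Atf5 from −0.14 to 0.15, Ywhaq from −0.089 to 0.37 and Slc7a11 from −0.33 to 0.093.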
